A study of Mus musculus with 28 samples.

Results

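The 6 genes described here belong to the perineurial barrier and were followed along the development of mouse peripheral nerve: Cldn1, Ocln, Slc2a1, Perp, Ppl and Mpzl2. They were taken by name as genes of the junctions, transport and adhesion of barrier-forming cells, with earlier results of these data already known. They are 6 of the 41605 genes in the count table. RNA was sequenced from nerves of wild-type C57BL/6J mice that were not perfused, at the embryonic stages labelled E13 and E17, which the study's text dates part of a day later than the labels, and at postnatal days (P) 1, 5, 14, 24 and 60, with 4 libraries at each of the 7 stages. Each E13 library came from various nerves distal to the dorsal root ganglia pooled from 2 embryos, although its label names sciatic nerve, and each E17 library from the sciatic nerves of 2 embryos. Each postnatal library came from the sciatic nerves of 1 mouse. The study used both sexes at every stage, but the labels of single libraries do not give the sex. From E17 on the epineurium and the perineurium were stripped off by hand, so that the genes were read in nerve from which perineurium had been taken off, while the E13 nerves were not stripped. How much perineurium remained in a single library is not given in the sources used here.

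The perineurium is a sleeve of flattened, layered cells around each nerve fascicle. Its cells are joined by tight junctions and form, with the vessels of the endoneurium, the blood-nerve barrier, which controls what reaches the axons. Claudins and occludin seal the space between neighbouring cells, glucose transporters carry sugar across the sealed layer, and desmosomes with their plakins tie the cells to each other and to the intermediate filaments. In bulk RNA of a whole nerve, fewer cells of a type and less RNA per cell cannot be told apart.

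Total counts per library ran from 13899895 to 37662780. Levels are read counts scaled to library size (CPM), with library sizes adjusted by the trimmed mean of M-values (TMM). Changes are log2 fold changes ± SE from 1 edgeR quasi-likelihood fit over all 28 libraries. A gene is said to have risen or fallen where the Benjamini-Hochberg adjusted p over the 17700 genes tested was under 0.05 and the fold change at least 2. All 6 genes passed the filter on low counts, which was run over all 28 libraries. With only the compared stages fitted, Ppl and Ocln failed it from E13 to E17, and Perp, Ppl and Ocln from E17 to P1. Perp and Ppl failed it from P1 to P5, and Ppl from P5 to P14. The Schwann cell gene Sox10 was read at every stage, at 117 ± 59.4 CPM at E13 (SD, n = 4) and at stage means of 326 to 468 CPM from E17 on.

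Sequences upstream of the gene start were held for 3 of the 6 genes in the RefSeq promoter table (GRCm38.p6), namely Cldn1, Slc2a1 and Ocln. They are shown because these are the genes of the set that seal the barrier and feed across it, and because all 3 were higher in the adult than in the newborn nerve. Each run below ends just before the annotated gene and is written 5′ to 3′ on the strand of the gene, with GC boxes (GGGCGG or its reverse complement) in capitals. The windows are chr16:26371842-26372089 on the minus strand for Cldn1, chr4:119108495-119108710 on the plus strand for Slc2a1 and chr13:100552719-100552968 on the minus strand for Ocln.
Cldn1: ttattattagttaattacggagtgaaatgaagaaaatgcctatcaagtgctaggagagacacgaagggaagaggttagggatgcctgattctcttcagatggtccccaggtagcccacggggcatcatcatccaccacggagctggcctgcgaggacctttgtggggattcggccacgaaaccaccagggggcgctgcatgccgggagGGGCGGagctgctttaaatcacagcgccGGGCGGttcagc
Slc2a1: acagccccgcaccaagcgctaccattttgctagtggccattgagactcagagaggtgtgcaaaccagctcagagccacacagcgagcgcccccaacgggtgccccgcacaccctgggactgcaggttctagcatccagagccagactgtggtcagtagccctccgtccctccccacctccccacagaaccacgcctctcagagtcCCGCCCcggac
Ocln: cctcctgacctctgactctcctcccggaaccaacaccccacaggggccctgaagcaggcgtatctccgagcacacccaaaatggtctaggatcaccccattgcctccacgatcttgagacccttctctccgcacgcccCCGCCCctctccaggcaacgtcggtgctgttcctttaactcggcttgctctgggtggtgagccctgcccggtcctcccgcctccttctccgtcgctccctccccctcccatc
Matches were counted on both strands in the 250 bases before each RefSeq start. Cldn1 held 2 GC boxes, whose first bases lay 42 and 14 bases upstream of its start, and Slc2a1 held 2, at 45 and 20 bases upstream, the nearer of which lies inside the gene model and is not shown. Ocln has 2 starts in the table, with 1 GC box before each, at 112 and 43 bases upstream, the second of which lies inside the gene model and is not shown. A GC box was present in 32.7% of all 32851 windows of this length. The other letters searched were TATAAA (the box bound by the general factor TBP, in 12.4% of all windows), CACGTG (an E-box, 6.02%), AACNNGTT (the core bound by Grainyhead-like factors, 3.64%) and CATTCC (bound by TEAD factors, 12.6%), and none of these 4 was found in the 4 windows of the 3 genes.

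All 6 genes changed along the 7 stages (adjusted p from 7.3e-14 to 1.1e-07), where 70.0% of all genes tested did so. All 6 also changed along the 6 stripped stages from E17 to P60 (adjusted p from 4.8e-13 to 1.3e-04), against 51.4% of all genes. Each of the 6 had its highest stage mean at P60. The lowest stage mean was at P1 for Slc2a1, Perp, Ppl and Mpzl2, at E13 for Cldn1 and at E17 for Ocln. The highest stage mean was 11.1 times the lowest for Slc2a1 and 14.9 times for Cldn1. The lowest stages of the other genes held few counts over their 4 libraries, with 36 for Mpzl2 at P1, 21 of them in replicate 3, 19 for Perp at P1, 6 for Ocln at E17 and 4 for Ppl at P1.

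**Figure D1:**
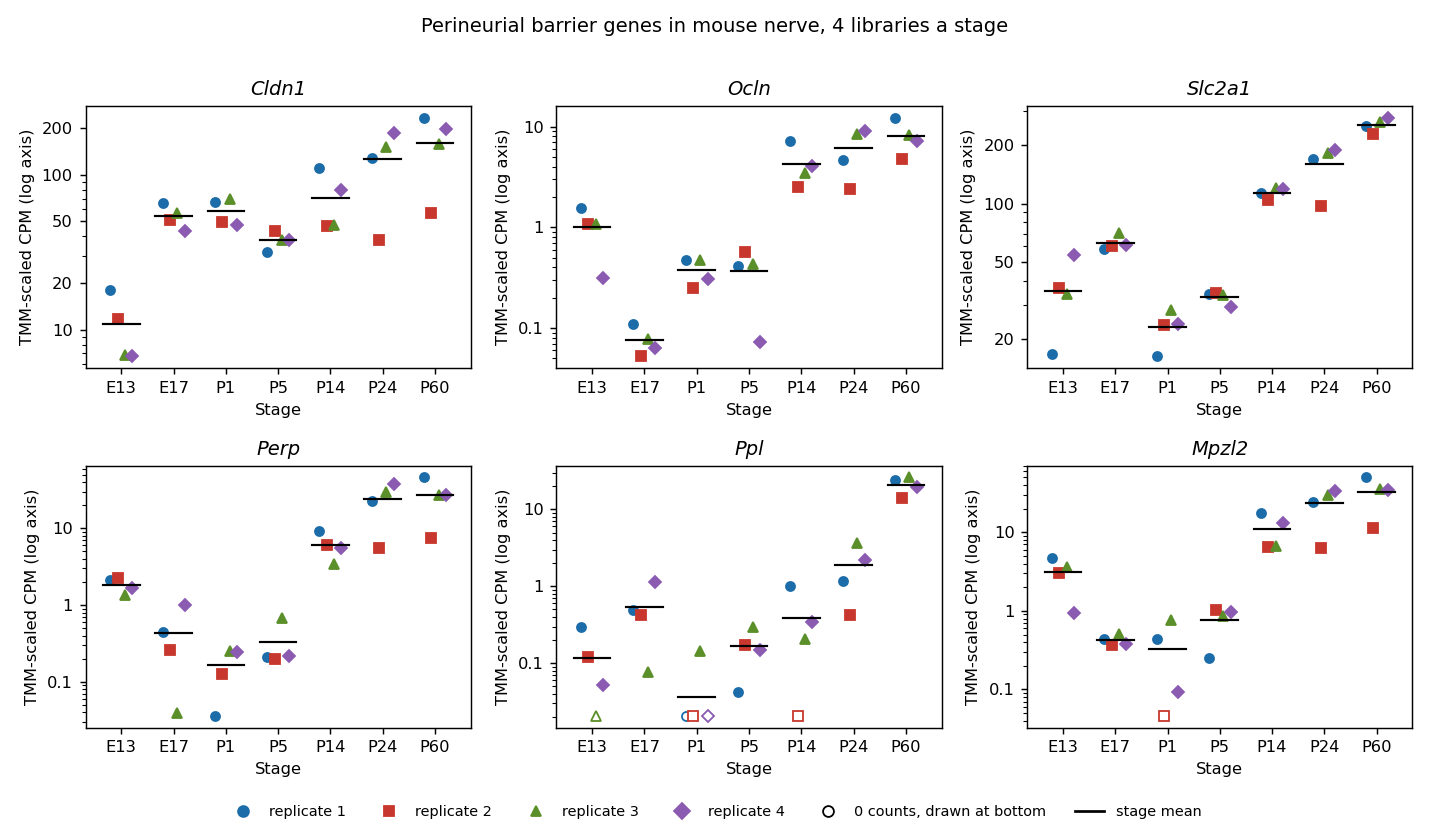
TMM-scaled CPM of the 6 genes (y axes, logarithmic, a separate range per gene) at the 7 stages (x axes). Each point is 1 library, with colour and shape for the replicate number, open symbols for libraries with 0 counts drawn at the bottom, and black lines for stage means. All 6 genes have their highest stage mean at P60, and replicate 2 is the lowest library of both P24 and P60 in every panel.

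Cldn1 (ENSMUSG00000022512, chromosome 16, 26356642 to 26371841, minus strand, GRCm38) encodes claudin 1, a sealing claudin of epidermal and perineurial tight junctions. It stood at 18.1, 11.7, 6.86 and 6.74 CPM in the 4 E13 libraries and at 65.4, 51.5, 56.6 and 43.2 CPM at E17. The groups did not overlap, and Cldn1 rose by 2.31 ± 0.41 on the log2 scale (adjusted p = 2.4e-05). Its levels were 66.8, 49.4, 70.2 and 47.5 CPM at P1 and 31.7, 43.6, 37.8 and 38.1 CPM at P5. Every P5 library was below every P1 library, but the difference of -0.63 ± 0.39 did not pass the test (adjusted p = 0.302). At P14 the libraries held 111, 46.6, 47.3 and 80.5 CPM, at P24 129, 37.7, 151 and 188 CPM, and at P60 234, 57.1, 158 and 198 CPM. None of the steps P5 to P14 (0.91 ± 0.39, adjusted p = 0.079), P14 to P24 (0.83 ± 0.39, adjusted p = 0.281) and P24 to P60 (0.36 ± 0.38, adjusted p = 0.617) passed the test on its own. The ranges of all neighbouring stages in the order of means overlapped, other than E13 and P5. From P1 to P60 Cldn1 rose 2.77-fold (1.47 ± 0.39, adjusted p = 0.00208), with the second P60 library inside the range of P1.

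Ocln (ENSMUSG00000021638, chromosome 13, 100496507 to 100552718, minus strand) encodes occludin, a membrane protein of the tight junction strand. It was at 1.56, 1.09, 1.08 and 0.316 CPM at E13 and had 2, 1, 2 and 1 counts in the E17 libraries. Over the summed counts (6 at E17, 110 at E13) the level at E17 was 0.0704 times that at E13 (95% binomial interval 0.0253 to 0.158, counting error only), and the fall passed the test (adjusted p = 5.3e-05). With only E13 and E17 fitted, Ocln had too few counts to be tested. The P1 libraries held 13, 6, 13 and 10 counts and the P5 libraries 10, 20, 10 and 2. The ratio of P1 to E17 was 4.97 (2.10 to 14.3), a rise that passed the test (adjusted p = 0.0309) and no longer did when any of 5 libraries was left out, E17 replicates 2, 3 and 4 (adjusted p = 0.0756, 0.0729 and 0.0653) and P1 replicates 1 and 3 (0.0651 and 0.0644). Over its 18 alternatives the adjusted p ran from 0.0115 to 0.0963. From P5 to P14 Ocln went from a mean of 0.373 CPM to 7.16, 2.49, 3.47 and 4.03 CPM, without overlap, and rose by 3.48 ± 0.49 (adjusted p = 3.1e-06). Its levels were 4.65, 2.41, 8.40 and 9.07 CPM at P24 and 12.2, 4.72, 8.21 and 7.16 CPM at P60. These 3 latest stages overlapped each other, and neither later step passed the test (adjusted p = 0.608 and 0.597). Of the 6 genes, Ocln lay lowest per length at P60, with 1.91 ± 0.739 CPM per kilobase of exon.

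Slc2a1 (ENSMUSG00000028645, chromosome 4, 119108711 to 119137983, plus strand) encodes the glucose transporter GLUT1 of blood-tissue barriers. Antisense genes lie in its span, with at most 30 counts each over all libraries. It stood at 16.7, 36.6, 33.9 and 54.5 CPM at E13 and at 58.4, 60.6, 70.5 and 61.0 CPM at E17. The groups did not overlap, and the difference of 0.83 ± 0.22 had an adjusted p of 0.00232 with a fold of 1.77, under the minimum of 2; without E13 replicate 4 it was 1.11 (adjusted p = 4.4e-05, range over 18 alternatives 3.4e-06 to 0.0423) and passed. At P1 the libraries held 16.3, 23.7, 28.2 and 24 CPM, all below E17, a fall by 1.44 (SE 0.23, adjusted p = 1.7e-05). The P5 libraries held 33.9, 34.3, 33.7 and 29.1 CPM, and the P14 libraries 113, 104, 120 and 119 CPM. Slc2a1 lay in narrow ranges on both sides of its largest adjacent step, a rise by 1.80 ± 0.23 from P5 to P14 (adjusted p = 7.1e-07). At P24 its level was 169, 97, 183 and 190 CPM and at P60 252, 230, 263 and 277 CPM. The last groups did not overlap, and their difference of 0.68 ± 0.22 (adjusted p = 0.0355) was a fold of 1.60, under the minimum. Of neighbouring stages in the order of means P1, P5, E13, E17, P14, P24 and P60, only P5 and E13, and P14 and P24, overlapped. The wide range of E13 (16.7 to 54.5 CPM) also overlapped that of P1 (16.3 to 28.2 CPM). Per length it was the most abundant of the 6 at P60, with 72.9 ± 5.65 CPM per kilobase of exon, against 33.4 ± 15.7 for Cldn1.

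Perp (ENSMUSG00000019851, chromosome 10, 18845020 to 18857073, plus strand) encodes a tetraspan protein of desmosomes that is also known as a target of p53 and p63. It was at 2.12, 2.26, 1.34 and 1.68 CPM at E13 and at 0.440, 0.264, 0.0388 and 1.01 CPM at E17, without overlap. The fall by 2.21 (SE 0.69) passed the test (adjusted p = 0.00705), but not with limma-voom (adjusted p = 0.138, the highest of 18 alternatives from 0.00224), and it was -3.00 without E17 replicate 4. Counts were few at P1, where the libraries held 1, 3, 7 and 8, and at P5, where they held 5, 7, 16 and 6. From there Perp rose by 4.22 ± 0.64 to 9.25, 5.99, 3.39 and 5.47 CPM at P14 (adjusted p = 1.1e-05), the largest log2 change of any of the 6 genes between adjacent stages, and by 4.81 without P5 replicate 3. The P24 libraries held 22.7, 5.49, 29.7 and 37.6 CPM, and 3 of them lay above all of P14. Perp rose by 1.99 ± 0.49 (adjusted p = 0.013), a call that was lost without P14 replicate 3 (1.79, adjusted p = 0.0595), P14 replicate 4 (1.95, 0.051) or P24 replicate 4 (1.68, 0.0683). Over 20 alternatives its adjusted p ran from 3.5e-04 to 0.0928. At P60 the levels were 45.9, 7.40, 27.2 and 27.1 CPM, which overlapped P24 (0.17 ± 0.47, adjusted p = 0.878).

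Ppl (ENSMUSG00000039457, chromosome 16, 5086291 to 5132421, minus strand) encodes periplakin, a plakin that links desmosomes and the cell cortex to intermediate filaments. Its counts were 9, 3, 0 and 1 at E13 and 9, 8, 2 and 18 at E17, and the difference of 1.93 ± 0.92 did not pass the test (adjusted p = 0.0713). It passed without E13 replicate 1 (3.00, adjusted p = 0.0258) or without E17 replicate 3 (2.36, adjusted p = 0.0279), with a range over 17 alternatives of 0.0258 to 0.294. At P1 all 4 counts came from replicate 3. The level at P1 was 0.0767 times that at E17 over the summed counts (95% binomial interval 0.0199 to 0.213), with overlapping libraries, and the fall passed the test (adjusted p = 0.016), but not without E17 replicate 4 (-2.93, adjusted p = 0.0847) or P1 replicate 4 (-3.16, 0.0525), while without P1 replicate 3, where the other P1 libraries held 0 counts, the fitted value was -6.47. Its adjusted p ran from 0.00386 to 0.0847 over 18 alternatives. Ppl then stood at 1, 6, 7 and 4 counts at P5 and at 20, 0, 5 and 9 counts at P14, so that these stages overlapped.

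At P24 the mean of Ppl was 8.95% of its adult mean, while the means of the other genes ranged from 62.6% for Slc2a1 to 88.8% for Perp. The P24 libraries held 1.18, 0.418, 3.70 and 2.22 CPM, against 24.3, 14.1, 26.0 and 19.8 CPM at P60. Every adult library was above every P24 library, a rise by 3.45 ± 0.59 (adjusted p = 1.2e-04) that remained past the threshold in all 20 alternatives run (adjusted p from 1.5e-07 to 0.00294). The step before it, from P14 to P24, gave 2.28 ± 0.69 with an adjusted p of 0.0512, and passed without P14 replicate 1 (3.23, adjusted p = 0.0162) or P24 replicate 2 (2.61, 0.0168). In all it passed in 10 of 20 alternatives, with an adjusted p of 0.00559 to 0.257.

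Mpzl2 (ENSMUSG00000032092, chromosome 9, 45039799 to 45054015, plus strand) encodes an adhesion protein with an immunoglobulin-like domain. It stood at 4.70, 3.07, 3.65 and 0.947 CPM at E13 and at 0.440, 0.370, 0.504 and 0.377 CPM at E17. The groups did not overlap, and Mpzl2 fell by 2.86 (SE 0.68, adjusted p = 7.1e-04). The P1 libraries held 12, 0, 21 and 3 counts and the P5 libraries 6, 36, 20 and 26, which overlapped each other and did not differ past the threshold (1.26 ± 0.75, adjusted p = 0.277). Mpzl2 rose by 3.79 ± 0.59 from P5 to P14 (adjusted p = 1.6e-05), where it reached 17.4, 6.56, 6.62 and 13.3 CPM, above every earlier library. At P24 the libraries held 24.6, 6.38, 30.0 and 33.7 CPM and at P60 49.8, 11.3, 35.5 and 34.2 CPM. The 3 latest stages overlapped, and the steps of 1.11 ± 0.49 and 0.46 ± 0.48 did not pass the test (adjusted p = 0.242 and 0.602).

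The genes were next set side by side, step by step. From E13 to E17 Cldn1 rose, as did 14.2% of all genes tested, and Ocln, Perp and Mpzl2 fell, as did 21.2% of all genes. This is also the step at which the stripping of the outer layers began and the sampled nerves changed, which cannot be told apart from the stage. The epidermal gene Krt1, a keratin of differentiating skin, stood at 2.24 ± 0.844 CPM at E13 and at 0.170 ± 0.171 CPM at E17, a fall by 3.69 (adjusted p = 1.4e-04), and 2 of the 4 epidermal marker genes tested fell. Krt10 and Sfn of this list had higher means at E17, with 4.06 against 3.26 CPM and 0.863 against 0.640 CPM, and were not called. The list summed to 6.82 to 9.10 CPM at E13 and to 4.19 to 7.10 CPM at E17. All 7 erythroid genes fell at this step, from a summed level of 685 to 6875 CPM at E13 to 359 to 1002 CPM at E17. The part of either in the results was not tested.

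From E17 to P1, Slc2a1 and Ppl fell, as did 5.41% of all genes, and Ocln rose, as did 6.31%. The endothelial list, whose cells also use Slc2a1, summed to 343 to 412 CPM at E17 and to 203 to 234 CPM at P1, without overlap, with a median log2 change of -0.86. The part of these cells in the fall of Slc2a1 was not tested. Between P1 and P5 none of the 6 was called by edgeR, where 4.05% of all genes rose and 1.79% fell. There was 1 of the 6 with an unadjusted p under 0.05, Slc2a1 at 0.0321, and neither DESeq2 nor limma-voom called any. From P5 to P14, 4 of the 6 rose, Ocln, Slc2a1, Perp and Mpzl2, against 7.11% of all genes. From P14 to P24 only Perp rose, against 1.51% of all genes, and 5 of the 6 had an unadjusted p under 0.05. From P24 to P60 only Ppl rose, against 2.55% of all genes. Against the newborn nerve, all 6 were higher at P60 (20.3% of all genes rose), and all 6 were higher at P60 than at E17 (22.2%). The adult level over P1 was 11.1-fold for Slc2a1 (3.47 ± 0.24), 21.1-fold for Ocln (4.4 ± 0.49), 99.0-fold for Mpzl2 (6.63 ± 0.68) and 153-fold for Perp (7.26 ± 0.70). For Ppl the ratio over summed counts was 588 (95% binomial interval 229 to 2162), and without P1 replicate 3 the P1 libraries held 0 counts. The ratio of P60 to E17 was 106 for Ocln (48.2 to 289), and the fold was 4.08 for Slc2a1 and 2.98 for Cldn1. Without P1 replicate 3 the log2 change of Mpzl2 over P1 was 7.47, and without E17 replicate 4 the changes of Perp and Ppl over E17 were 6.87 and 6.07.

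**Figure D2:**
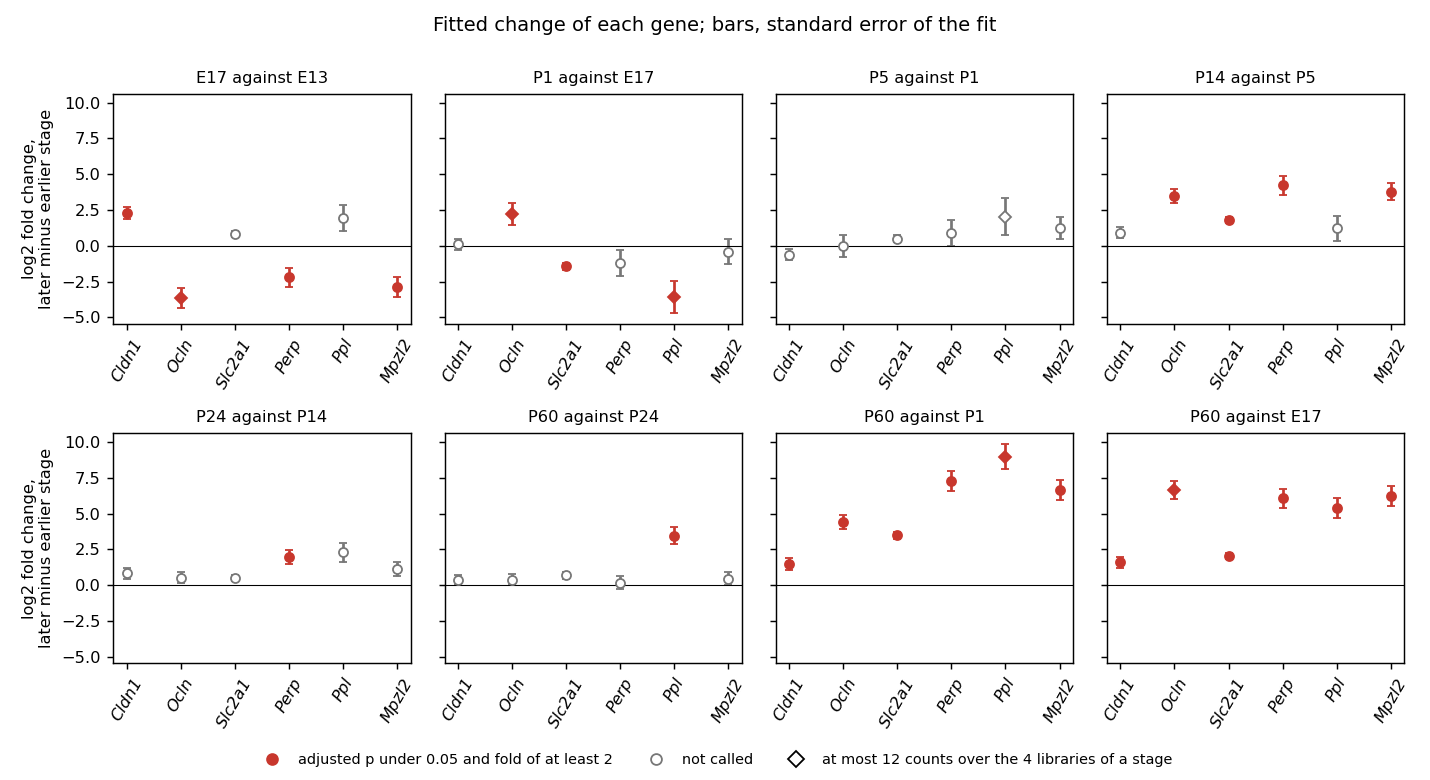
Log2 fold change of each of the 6 genes (y axes, later minus earlier stage) in the 8 comparisons (panels). Bars are standard errors of the edgeR fit, filled red symbols are called changes, open grey symbols are not called, and diamonds mark comparisons in which a stage held at most 12 counts over its 4 libraries. There are 4 genes called from P5 to P14, and Ppl alone is called from P24 to P60.

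Single libraries stood apart within a stage. Replicate 2 was the lowest of the 4 libraries for 6 of the 6 genes at P24 and again for 6 of 6 at P60. Over 14652 genes averaging at least 1 CPM, it was the lowest library for 25.3% at P24 and 26.3% at P60. At P24 it held 18.3% of the mean of the other 3 libraries for Perp, 17.7% for Ppl, 21.7% for Mpzl2, 24.2% for Cldn1, 32.6% for Ocln and 53.6% for Slc2a1. At P60 the same shares were 22.2% for Perp, 28.4% for Mpzl2, 29.1% for Cldn1, 51.3% for Ocln, 60.3% for Ppl and 87.3% for Slc2a1. Libraries of different stages came from different mice, and what these libraries share beside the number is not given in the labels. At P14 replicate 1 was highest for 5 of the 6 genes and for 27.6% of the 14652 genes, and at P1 replicate 3 was highest for all 6, against 21.8%, with Ocln there at 13 counts in replicate 1 too. The epineurial list summed to 112 CPM in that P14 library against 82.2 to 92.7 CPM in the others, and to 21.4 CPM in that P1 library against 6.25 to 10.5 CPM. The adipocyte list summed to 67.8 CPM in that P14 library against 4.03 to 43.8 CPM. The part of these cells in the ranks was not tested.

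Other cell type markers were read in the same libraries. The 6 other perineurial marker genes (Itgb4, Lypd2, Msln, Ntn4, Tenm2 and Wnt6) were also all lowest in replicate 2 at both P24 and P60, with summed levels of 435 CPM against up to 600 at P24 and 793 against up to 1116 at P60. These sums are mostly Itgb4, which held 383 of the 435 CPM and 701 of the 793 CPM. The drop of the 6 genes was uneven. Tenm2, encoding a teneurin adhesion receptor, stood at 29.6% of the other P24 libraries and 48.4% of the other P60 libraries, while Itgb4, encoding the integrin β4 of the basal lamina contact, stood at 87.8% and 82.4%. The adipocyte list was lowest in replicate 2 for 4 of 4 genes at both stages, and its summed level ranged from 3.87 to 281 CPM over the P24 libraries. The epineurial list was lowest there for 5 of 5 genes at P24 and 4 of 5 at P60, and Pcolce2, an epineurial gene, stood at 18.9% and 27.1% of the other libraries, while Ly6c1 of the same list stood at 80.1% and 100%. None of the 4 Schwann cell genes or of the 5 erythroid genes averaging at least 1 CPM was lowest in replicate 2 at either stage. The hedgehog list was lowest in replicate 2 for 4 of 5 genes at P24 and 3 of 4 at P60. The ligand Dhh itself stood at 112% of the other P24 libraries and its receptor gene Ptch1 at 50.9%. The endothelial list was lowest in replicate 2 for 6 of 8 genes at P24 and 1 of 8 at P60. Its Pecam1, encoding an adhesion protein, stood at 55.4% and 101% of the other libraries, while Kdr, encoding a VEGF receptor, stood at 99.0% at P24. The part of residual outer tissue in the spread was not tested.

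**Figure D3:**
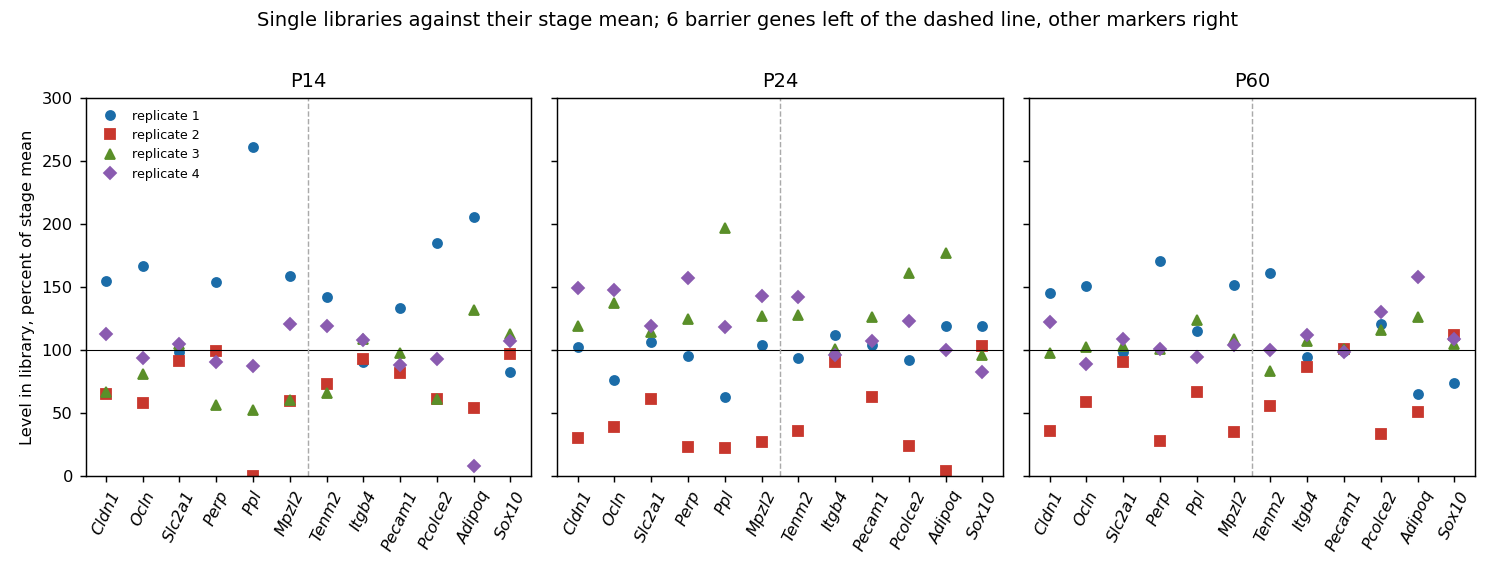
Level of 12 genes in each single library as a percent of the stage mean (y axis) at P14, P24 and P60 (panels). Points are libraries, with colour and shape for the replicate number, the 6 barrier genes stand left of the dashed line, and markers of perineurial (Tenm2, Itgb4), endothelial (Pecam1), epineurial (Pcolce2), fat (Adipoq) and Schwann cells (Sox10) right of it. Replicate 2 lies lowest for all 6 barrier genes at P24 and P60, and at P24 holds 29.9% of the stage mean for Cldn1 but 90.6% for Itgb4.

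With replicate 2 left out of both P24 and P60, a choice made after the values were seen, 3 of the 6 genes rose from P14 to P24 in place of 1, against 1.85% of all genes in that fit. These were Perp (2.32, adjusted p = 3.5e-04), Ppl (2.61, 0.0196) and Cldn1 (1.13, 0.018), while Mpzl2 gave 1.42 with an adjusted p of 0.0506. As the P24 library left out was the lowest for all 6 genes, leaving it out raises each P24 mean. P14 replicate 2, the lowest P14 library for 5 of the 6 genes, was kept. Ppl still rose from P24 to P60 (3.27, adjusted p = 9.0e-04), where 1.90% of all genes rose, and the difference of Slc2a1 at that step had an adjusted p of 0.152. Over all 20 alternatives of each, the adjusted p from P14 to P24 ran from 0.018 to 0.623 for Cldn1 and from 0.0107 to 0.506 for Mpzl2, and that of Slc2a1 from P24 to P60 from 4.7e-05 to 0.152. All 6 were higher at P60 than at P1 and E17 without these libraries too, against 19.9% and 21.6% of all genes.

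Genes whose pattern was most like each of the 6 were sought among 13101 protein-coding genes over the 24 stripped libraries, by Pearson's r of log2 CPM. These libraries share their stages, and r is given as a description. For Cldn1 they were Tenm2 (0.96), Cobl (0.96) and Klf5 (0.95), for Ocln Slc6a13 (0.98) and Ecm2 (0.97), and for Slc2a1 Igsf9, Adamtsl5 and Ctdspl (0.98 each). For Perp they were Mgp, Olfr1033 and Krt19 (0.98 each), for Ppl C3 (0.94), Rbp4 (0.93) and Cdo1 (0.93), and for Mpzl2 Il33 (0.98) and Lbp (0.97). The study's text names Cdo1 among its markers of adipocytes. With Spearman's rho in place of r, 0 of the 3 genes nearest to Slc2a1 and 0 of the 3 nearest to Ppl were shared.

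Once each stage's mean was taken off, the nearest genes to Cldn1 were F11r (0.98), Svep1 (0.97) and Cgnl1 (0.97), of which F11r encodes the junctional adhesion molecule JAM-A and Cgnl1 paracingulin, a protein of the junction plaque. Without the second P24 and P60 libraries these values were 0.92, 0.89 and 0.88. The nearest to Perp was Krt19, a keratin of simple epithelia (0.86, and 0.77 without those libraries), followed by Mgp (0.85) and Ltbp2 (0.84). To Ocln they were Shox2 (0.88), Nhsl2 (0.86) and Lmo7 (0.85), to Mpzl2 Lepr (0.89), Egfl6 (0.89) and Bmp3 (0.88), to Ppl Fmod (0.87), Cpz (0.83) and Tspan7 (0.83), and to Slc2a1 Gsn, Glis2 and Ccnd3 (0.93 each), of which 0 of 3 were shared with Spearman's rho. Among the 15 pairs of the 6 genes themselves, r of the deviations ran from 0.39 to 0.81 over 24 libraries and from -0.03 to 0.71 without those 2, with Cldn1 and Mpzl2 highest in both cases.

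The 6 other perineurial markers were read at the same steps. From P5 to P14, 4 of the 6 rose, against 7.11% of all genes, with the netrin gene Ntn4 going from 1.30 ± 0.761 to 16.5 ± 2.75 CPM (3.68 ± 0.33, adjusted p = 2.6e-09) and mesothelin (Msln) from 1.10 ± 0.170 to 21.2 ± 8.38 CPM (4.26 ± 0.56, 1.4e-06). From P1 to P60, 5 of the 6 rose and none fell (20.3% of all genes rose), with a median log2 change of 3.75 against -0.02 over all genes. Itgb4 stood at 144 ± 16.3 CPM at E17, 113 ± 30.8 CPM at P1 and 814 ± 96.0 CPM at P60. It rose by 3.87 ± 0.27 from E13 to E17 (adjusted p = 1.2e-12), where Ntn4 fell by 3.44 (adjusted p = 2.4e-08).

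Of 25 other tight junction genes, 19 could be tested. From P1 to P60, 12 of these rose and 1 fell, where 20.3% of all genes rose and 15.2% fell, with a median log2 change of 1.53 against -0.02 over all genes. Cldn22, a claudin of unsettled role, rose most, with 974 counts at P60 against 7 at P1 (ratio 260, 95% binomial interval 126 to 648), and stood at 16.2 ± 5.65 CPM at P60, and Cldn5, the claudin of endothelial barriers, went from 5.63 ± 1.12 to 83.1 ± 18.9 CPM (3.88 ± 0.29, adjusted p = 6.3e-12). Tjp1, encoding the scaffold ZO-1, went from 221 ± 19.0 to 452 ± 36.6 CPM (1.03 ± 0.22, adjusted p = 2.0e-04). Marveld3, encoding a relative of occludin, was the gene that fell, from 357 counts to 2 (ratio 0.0105, 0.00126 to 0.0381). Cldn19, the claudin of Schwann cell autotypic junctions, followed another course, with 71.0 ± 4.59 CPM at E17 and 1416 CPM at P1 (4.32 ± 0.15, adjusted p = 2.0e-18), and 1396 CPM at P60.

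From E13 to E17 4 of the 19 tight junction genes rose and 6 fell, where 14.2% of all genes rose and 21.2% fell. Cldn19 (4.68 ± 0.16) and Jam3 (2.33 ± 0.11) rose most, and Lsr, encoding angulin-1 of tricellular junctions, fell from 10.2 ± 4.16 to 1.29 ± 0.593 CPM (adjusted p = 3.8e-09). Marveld2, encoding tricellulin, fell as well, from 1.84 to 0.322 CPM (adjusted p = 4.1e-04). From P5 to P14, 6 rose and 1 fell (7.11% and 4.91% of all genes), with Cldn22 (311 counts against 4, ratio 96.7, interval 37.4 to 357) and Cldn15 (log2 change 2.08 ± 0.49) in front, and Marveld3 fell by 2.15. From P24 to P60, where 2.55% of all genes rose, Cldn22 rose (1.43 ± 0.42, adjusted p = 0.0177) and Marveld3 fell, from 49 counts to 2 (ratio 0.0540, 0.00636 to 0.206), against 3.41% of all genes that fell.

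The desmosome was represented unevenly. Of 11 other desmosome and plakin genes only 6 could be tested, and the plakophilin genes Pkp1 and Pkp3 were among those with too few counts. Dsp, encoding desmoplakin, the plakin of every desmosome, stood at 0.832 ± 0.710 CPM at E13 and 0.700 ± 0.624 CPM at E17, and at stage means of at most 0.0648 CPM from P1 to P60, where Perp and Ppl reached 26.9 and 21 CPM. Jup, encoding plakoglobin, which adherens junctions use too, rose from 20 ± 5.16 CPM at P1 to 122 ± 13.5 CPM at P60 (2.61 ± 0.21, adjusted p = 2.1e-11), and Pkp2 from 0.977 to 4.59 CPM (2.23 ± 0.24, 9.3e-09). In all, 3 of the 6 rose between these stages and 1 fell, the desmocollin gene Dsc2, from 14 counts to 0, against 20.3% and 15.2% of all genes. The plakin genes that fell along with Ppl from E17 to P1 were Dsp, from 51 counts to 5 (ratio 0.0695, 95% binomial interval 0.0217 to 0.173, adjusted p = 0.00332), and Evpl, encoding envoplakin, which fell by 1.48 (adjusted p = 0.0264), where 5.41% of all genes fell. At E17, replicate 4 held 25 of the 51 counts of Dsp, and it was also the highest library for Ppl (18 counts), Perp (16 counts) and the epidermal keratin Krt15 (34 counts, against 0 to 4 in the others). Evpl was lowest in that library, with 8 counts (0.503 CPM) against 14 to 20 counts (0.739 to 1.04 CPM) in the others. The epidermal list summed to 7.10 CPM in that library, 2.14 CPM of it from Krt15, against 4.19 to 5.97 CPM in the others. Its Krt5 and Krt14 held at most 1 count in any E17 library. The part of epidermal cells in these values was not tested. Between P24 and P60, where Ppl rose, the 6 genes had a median log2 change of 0.41, and Evpl stood at 0.218 and 0.166 CPM.

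Among the 10 other Slc2a sugar transporter genes, 9 were tested, and from P1 to P60 2 rose and none fell, a share near the 20.3% of all genes that rose, with a median log2 change of 0.10. The insulin-responsive Slc2a4 went from 3.57 to 10.9 CPM (1.61 ± 0.27, adjusted p = 1.2e-05) and Slc2a6 from 1.57 to 4.18 CPM (1.40 ± 0.33, 7.0e-04). From E17 to P1, where Slc2a1 fell, 1 of the 9 rose and none fell, near the 6.31% and 5.41% of all genes. From E13 to E17, 1 of the 9 rose and 5 fell, against 14.2% and 21.2% of all genes, and Slc2a3, the main glucose transporter of neurons, fell by 2.75 (adjusted p = 1.4e-09). Of the 2 other Mpzl genes, Mpzl3 rose from 0.803 to 4.11 CPM between P1 and P60 (2.33 ± 0.38, adjusted p = 6.3e-06), while Mpzl1 fell by 1.54 (SE 0.10, adjusted p = 4.9e-13).

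**Figure D4:**
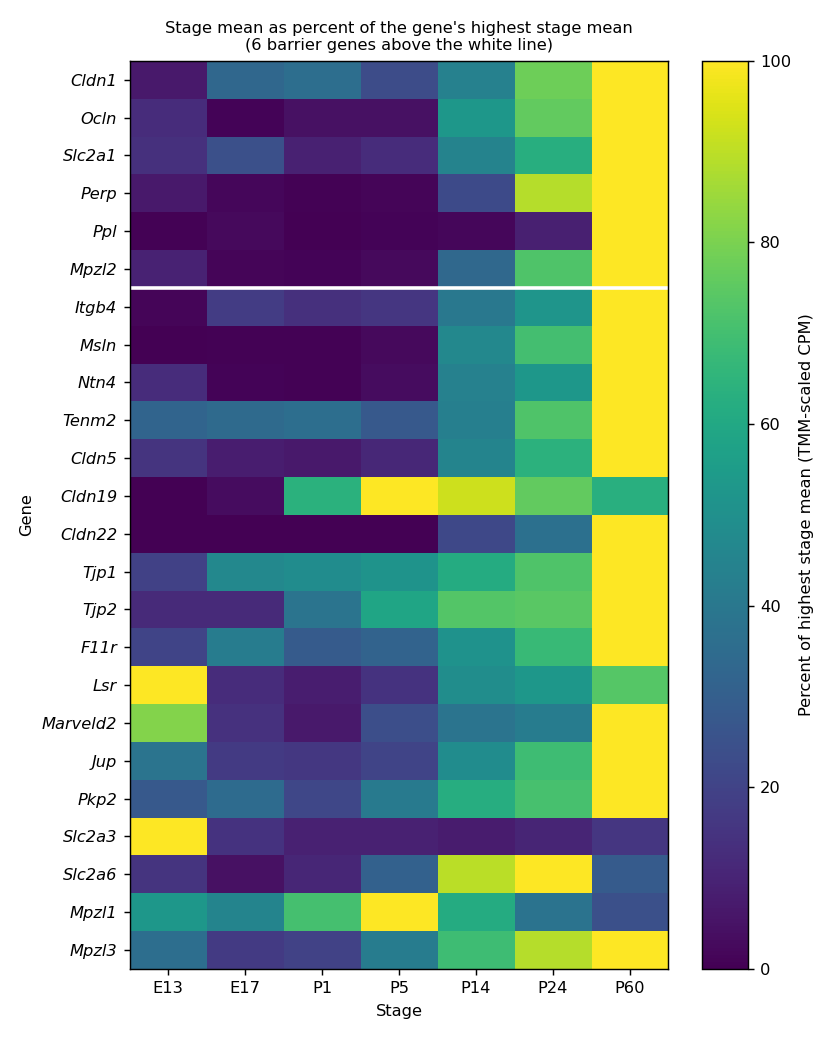
Stage mean of 24 genes as a percent of each gene's own highest stage mean (colour scale, 0 to 100) at the 7 stages (x axis). The 6 barrier genes stand above the white line, and other perineurial markers, tight junction, desmosome, Slc2a and Mpzl genes below it. The barrier genes all peak at P60, Ppl is at 8.95% of its peak at P24 where Perp is at 88.8%, and Cldn19, Slc2a6 and Mpzl1 peak earlier.

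Desert hedgehog, secreted by Schwann cells, is the known signal for building the perineurium. Dhh rose from 27.0 ± 8.70 CPM at E13 to 222 ± 10.5 CPM at E17 (3.04 ± 0.17, adjusted p = 1.5e-14), together with its receptor and target gene Ptch1 (1.17 ± 0.21, adjusted p = 3.0e-05), and 4 of the 5 genes of the pathway list rose at that step, against 14.2% of all genes. From P5 to P14, when 4 of the barrier genes rose, Hhip, encoding an inhibitor of the ligand, was the 1 gene of the 5 that changed and fell by 2.6 (adjusted p = 7.6e-05), where 4.91% of all genes fell and 7.11% rose. The stage mean of Dhh stayed between 270 CPM (P60) and 377 CPM (P14) from P1 on.

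Markers of cells outside the perineurium also moved between P1 and P60, where 20.3% of all genes rose, and their part in these changes was not tested. The epineurial list rose in 5 of 5 genes, from summed levels of 6.25 to 21.4 CPM at P1 to 128 to 167 CPM at P60, and in 5 of 5 from P5 to P14, against 7.11% of all genes. Ly6c1 alone averaged 104 CPM of the mean sum of 149 CPM at P60, and 4.67 of 11.6 CPM at P1. The adipocyte list rose in 4 of 4, from 0.167 to 0.328 CPM to 158 to 533 CPM, with Adipoq at 0.120 and 37.7 CPM. The endothelial list rose in 5 of 8, from 203 to 234 CPM to 500 to 566 CPM, with Pecam1 going from 48.7 ± 2.38 to 116 ± 1.29 CPM. From P24 to P60, where Ppl rose, the median log2 change was 0.24 over the endothelial, -0.15 over the epineurial and 1.22 over the adipocyte genes. The epidermal list, whose cells use Cldn1, Perp and Ppl, was at 4.05 to 5.98 CPM at P1 and 6.43 to 8.04 CPM at P60 in sum. Its Krt5 and Krt14 averaged 0.279 and 0.219 CPM at E13 and at most 0.0289 CPM at any later stage, Krt5 was at 0 counts in every library from P1 on, and 1 of its 4 tested genes rose, Trp63, from 3 counts to 80 (ratio 49.8, 95% binomial interval 16.4 to 247).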

How the data were processed

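Poly-A RNA of 28 nerve libraries was used, 4 at each of 7 stages, grouped by the stage in the labels. The authors prepared the libraries with a stranded mRNA kit and deposited raw read counts per gene, not normalized, which they had obtained with STAR 2.6.1c and featureCounts. The submitters' processing notes name GRCm38.p5 as the build, and the counting settings for strand and for reads that align to several places are not given in the sources used here, so that values of overlapping genes are uncertain. Symbols and coordinates came from GENCODE M21 (GRCm38), which matched 41519 of 41605 identifiers, and upstream sequences from RefSeq (GRCm38.p6).

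Genes were kept by filterByExpr by stage (17700 genes), TMM factors were applied to the library sizes, and all libraries entered 1 fit in edgeR 4.0.16 (R 4.3.3; estimateDisp, robust glmQLFit, glmQLFTest) on stage alone, with a common dispersion of 0.0439. The SE of a log2 fold change was its size over the square root of F. Where a stage held at most 12 counts over 4 libraries, the ratio of summed counts with its exact 95% binomial interval was given. Such intervals cover counting error only. No 2 libraries were identical, and over the 42 replicate pairs the counts differed by a chi-square of 5.21 to 293 per degree of freedom. Log2 CPM for likeness used a prior count of 2 and genes averaging at least 1 CPM over the 24 stripped libraries.

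The 6 genes and all lists were chosen with earlier results of these data known, among them the rise of Ppl from P24 to P60, which is therefore no independent support. Counts of the 6 genes and of the lists beside the share of all genes are likewise descriptions and no independent support. Named from each list were up to 2 called genes per direction with the largest change and at least 1 CPM in the higher stage of that comparison, and always Itgb4, Tjp1, Cldn5, Cldn19, Dsp, Jup, Dhh, Ptch1, Pecam1, Pcolce2, Krt5, Krt14, Adipoq and Sox10. Evpl, Dsc2, Pkp1, Pkp3, Krt15 and Kdr were named after their values were seen, and so was each use of a named gene at a comparison where it is not among the called ones. Other settings tried were scaling by DESeq2 size factors or by total counts, 2 filters, the tests of DESeq2 1.42.0 and limma-voom (limma 3.58.1, weighted by sample quality), a replicate block, removal of a GC trend, no fold minimum, fits of the compared stages only or without E13, each library left out in turn and, for likeness, Spearman's rho. The 3 genes most like each of the 6 were sought, and some of them are not reported here. The fitting step was checked on simulated counts.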

Additional observations from a re-analysis of the deposited data

Results flagged for a closer look

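Among the 6 genes at 7 stages, 3 groups of 4 libraries held 1 library that stood far from the other 3 by Dixon's criterion, the gap to its nearest neighbour over the range of the group. Chance gives this in about 1 in 20 groups. Perp at P5 stood at 0.685 CPM in replicate 3 (16 counts), against 0.201 to 0.220 CPM in the other libraries. Ppl at P1 stood at 0.146 CPM in replicate 3 (4 counts), against 0 counts in each of the others, where any count above 0 would have been flagged. Slc2a1 at P5 stood at 29.1 CPM in replicate 4, against 33.7 to 34.3 CPM. The cause of these 3 values was not tested.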

How the results depend on the processing

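The counts of genes called kept within 1.5 times of the main count in 211 alternatives and moved in 17, and with the DESeq2 test all 8 comparisons kept theirs. From E17 to P1, 3 genes were called and 1 when only the compared stages were fitted, where Perp, Ppl and Ocln had too few counts to be tested; leaving out single libraries gave 1 (without E17 replicate 4) to 3. From P14 to P24, 1 gene was called in the main analysis. It was 2 with DESeq2 size factors, library size only, the filter of 1 CPM in at least 4 libraries, the replicate block, the GC trend removed or no E13 libraries, 3 with limma-voom or without replicate 2 of P24 and P60 (added after seeing the data), and 0 with only the compared stages, while leaving out single libraries gave 0 to 2. From P24 to P60, 2 were called in place of 1 without a fold minimum, Slc2a1 and Ppl. Of the log2 fold changes under alternatives, 881 kept direction and call, 17 gained a call, 13 lost one and 11 changed sign, none of the last being a called change. The latter were Ocln from P1 to P5 (main 0.00; limma-voom 0.12, replicate block 0.08, GC trend removed 0.01, compared stages only 0.00, without P1 replicate 1 0.14, P1 replicate 3 0.12 or P5 replicate 4 0.34), Cldn1 from E17 to P1 with library size only (-0.01) and Perp from P24 to P60 (limma-voom -0.12, without P24 replicate 2 -0.16, without P60 replicate 1 -0.22; main 0.17, leaving out single libraries -0.22 to 0.48). For Ocln, leaving out single libraries gave -0.33 to 0.34. The cause was not tested. Under Spearman's rho or library size only, fewer than 2 of the 3 nearest genes were shared in 8 of 24 cases. Library size alone moved the median of all genes from -0.08 to -0.33 for E17 against E13 and from 0.00 to -0.31 for P60 against E17. The labels do not say what a replicate number stands for. Same-numbered libraries had deviations correlated at -0.06 to 0.29, and 18 of 28 correlated best with a library of their own number, a hint from the data that the numbers share something, not from the design. With the replicate block, the genes called moved from 469 to 476 over all genes from P14 to P24, and Ppl gained a call there (2.29, adjusted p = 0.0483). Values at a few counts, as for Ocln at E17 and Ppl at P1, carry wide counting intervals.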
